A study of Mus musculus with 8 samples.

Results

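The 32 genes described here are targets of the transcription factor p53, together with Trp53 itself and its relative Trp73, chosen by name as known members of the p53 response. They and the other gene lists below were chosen with earlier results of these data known. Counts of list genes set beside the share over all genes therefore describe the lists and do not test them. All 32 had a probe that was kept for testing, out of 13332 genes tested on the arrays. They were measured in secondary neurospheres, the free-floating clusters formed by neural stem and progenitor cells after primary spheres are dissociated and reseeded, grown from the hippocampus of mice aged 7 to 9 weeks in medium with bFGF, EGF and heparin. RNA of each sample was hybridised to one Agilent one-colour array, giving 8 arrays in 4 groups of 2. The WT and Sirt1 KO groups were of strain 129/ICR and were harvested after 6 days of culture, with replicate 1 labelled female and replicate 2 male. The DMSO and resveratrol groups were wild-type C57BL/6 males, cultured for 5 days and then given the solvent or resveratrol for 24 hours, at a dose labelled 10 with the unit written as "mm". Whether the Sirt1 deletion was confined to some cells, and which exons it removed, is not given in the sources used here. Beyond sex, nothing in the labels marks the replicates as separate cultures or animals, and the p-values therefore measure the spread of these samples alone, which may be technical.

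p53 is held at a low level by the ubiquitin ligase MDM2 and accumulates when DNA is damaged, replication stalls or nucleotides run short, and it then switches on genes that halt the cell cycle, repair DNA, limit growth or kill the cell. Acetylation of its C-terminal lysines accompanies its activation, and SIRT1, an NAD-dependent deacetylase, removes those acetyl groups. Resveratrol is a plant polyphenol in common use as a SIRT1 activator, and it also acts on other proteins. In neural stem cells p53 is known as a brake on self-renewal and proliferation.

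Because p53 acts through sites near its target genes, promoter windows from 250 bases before to 50 bases after the annotated start were read for the members from RefSeq (build GRCm38.p6). The search of the members covered 31 windows of 24 members and left out a chromosome that the count over all windows kept. No window was read for Pmaip1, Trp53inp1, Zmat3, Tnfrsf10b, Perp, Rrm2b, Ddb2 and Xpc. Whether each lacked a window or lay on the chromosome left out was not checked. Each window was searched for the p53 response element, built of 2 half-sites of 10 bases with the core CNNG in each, a spacer of 0 or 1 base between them and up to 3 mismatches among 20 bases. The element is a palindrome, so 1 search covers both strands. It was found in 9 of the 31 windows, of 8 genes (Aen, Bax, Bbc3, Ccng1, Sesn1, Tigar, Trp53 and Trp73), against 2.82% of all 32851 windows of the same length. A match is a description of these letters and not a site of binding, and a window without one says nothing of sites elsewhere in the gene. The windows of Bbc3 and Fas, called with resveratrol below, and of Ccng1 and Bax, which held matches with few mismatches, are given 5′ to 3′ on the strand of the gene, with the matched element in capitals. Ccng1 (chr11:40755237-40755536, minus strand) held the closest match of the members, with 1 mismatch, starting 195 bases before the annotated start. Bbc3 (chr7:16309333-16309632, plus strand) held one with 3 mismatches, starting 97 bases before it. Bax (chr7:45466849-45467148, minus strand) held one with 2 mismatches and a spacer of 1 base, starting 201 bases before it. Fas (chr19:34290409-34290708, plus strand) held none.
Ccng1: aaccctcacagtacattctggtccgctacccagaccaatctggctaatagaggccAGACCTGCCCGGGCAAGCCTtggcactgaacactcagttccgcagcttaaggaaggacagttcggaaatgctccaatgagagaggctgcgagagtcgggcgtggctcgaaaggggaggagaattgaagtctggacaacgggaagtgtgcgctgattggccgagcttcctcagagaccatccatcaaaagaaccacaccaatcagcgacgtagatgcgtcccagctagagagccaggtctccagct
Bbc3: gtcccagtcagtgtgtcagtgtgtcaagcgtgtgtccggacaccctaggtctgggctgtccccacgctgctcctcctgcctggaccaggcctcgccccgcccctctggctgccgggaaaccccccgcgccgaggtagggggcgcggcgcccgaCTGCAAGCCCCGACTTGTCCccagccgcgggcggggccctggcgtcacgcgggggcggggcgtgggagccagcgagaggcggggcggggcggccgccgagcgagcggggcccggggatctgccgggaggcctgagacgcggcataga
Bax: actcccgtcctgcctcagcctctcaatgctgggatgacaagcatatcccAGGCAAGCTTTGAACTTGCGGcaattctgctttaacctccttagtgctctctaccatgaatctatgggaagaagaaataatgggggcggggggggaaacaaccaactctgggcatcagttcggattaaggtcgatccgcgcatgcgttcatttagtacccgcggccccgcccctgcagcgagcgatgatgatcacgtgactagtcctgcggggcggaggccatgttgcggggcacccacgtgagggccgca
Fas: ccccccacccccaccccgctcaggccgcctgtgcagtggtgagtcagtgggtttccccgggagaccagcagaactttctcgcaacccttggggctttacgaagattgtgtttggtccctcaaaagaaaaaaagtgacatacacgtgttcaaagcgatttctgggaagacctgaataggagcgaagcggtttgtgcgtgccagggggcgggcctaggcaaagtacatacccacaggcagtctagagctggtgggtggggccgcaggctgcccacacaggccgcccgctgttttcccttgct

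All levels below are log2 of the processed array signal relative to the 75th percentile of the same array, so 0 is the level of that percentile and a difference of 1 is a doubling of signal, and each level is read only against the same probe on other arrays. The 75th percentile itself ran from 257 to 388 signal units on the replicate 2 arrays and from 740 to 910 on the replicate 1 arrays, and no spot was saturated. The arrays lay on 3 slides. In the treatment groups the replicate number is the slide, and in the genotype groups replicate 2 of both lay on the only slide of a separate scan day. Groups are therefore also compared within replicate pairs 1 and 2, which share a slide in the treatment groups and a sex in the genotype groups, where WT replicate 1 and Sirt1 KO replicate 1 lay on different slides. The Sirt1 probe of highest signal read 0.12 and 0.13 in WT and 0.36 and -0.12 in Sirt1 KO, so it did not separate the genotypes. Where this probe lies relative to the deleted part is not known, so it does not check the labels, and the group is called Sirt1 KO as labelled. All 14 neural stem and progenitor markers were measured and well above background on all 8 arrays. Of the defining markers of other cells, 8 of 9 for microglia, 4 of 6 for endothelium, 5 of 7 for pericytes and fibroblasts and 3 of 5 for blood were not measured. These had no named probe or none that passed the filter on dim probes. Measured were 9 of 10 markers for astrocytes, 7 of 7 for oligodendrocyte precursors and 5 of 6 for mature oligodendrocytes. So were 5 of 8 for the neuronal lineage and 3 of 5 for ependyma and choroid plexus. Precision throughout is set by having 2 arrays in a group.

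Of the members, 30 were well above background on all 8 arrays. Rrm2b was so on 7 arrays, all but WT replicate 2, and Dram1 on 5, failing on replicate 2 of WT, Sirt1 KO and resveratrol. The members had 51 kept probes, and the probe of highest mean stood for each gene. Of the 19 further probes, 18 had the sign of the main probe for resveratrol minus DMSO and 13 for Sirt1 KO minus WT.

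Resveratrol was compared with DMSO as the gain of SIRT1 function in the study. Among the p53 targets, limma called Perp, Fas and Bbc3 (also called Puma) higher with resveratrol, but only with the replicate block. This block, given below, is for replicate number within each arm, which is the slide in the treatment groups but not in the genotype groups. In the fit of group means the limma adjusted p was 0.9999 for each of these genes. With slide as a block shared by all arrays it was 0.923 for Perp and Fas and 0.999 for Bbc3. In the group means 29 of 32 members were higher with resveratrol and 3 were lower. A total of 25 were higher in both replicate pairs, against 36.7% of all genes, and 1, Btg2, was lower in both, against 32.2%. The median difference over the members was 0.39 (0.38 in pair 1 and 0.39 in pair 2), and over all genes it was 0.013. A difference of at least 0.5 with the same sign in both pairs was reached by 13 members upward, against 6.58% of all genes, and by 0 downward, against 3.11%. All 13 had the larger difference in pair 2, the pair of slide 2. The arrays of the groups did not overlap for 11 members higher with resveratrol, against 10.3% of all genes, and for 1 lower, against 8.72%.

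The number of genes called depended on the block. In the fit of the 4 group means with limma, 0 of 13332 genes passed an adjusted p of 0.05 (Benjamini-Hochberg), and 201 genes (1.51%), among them 4 members, had an unadjusted p under 0.05. With a block for replicate number in each arm (the replicate block), limma called 54 genes higher (0.405%) and 7 lower (0.0525%), and 3 of the 32 members were among those higher. In that fit 17 members were higher at an unadjusted p under 0.05, against 9.53% of all genes, and 0 lower, against 4.71%. With slide as a block shared by all 8 arrays, limma called 0 genes, and the lowest adjusted p of a member was 0.923. The blocked fits have 2 residual degrees of freedom and the fit of group means has 4. In bulk RNA, fewer cells of a type and less RNA per cell cannot be told apart for any gene named here.

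**Figure D1:**
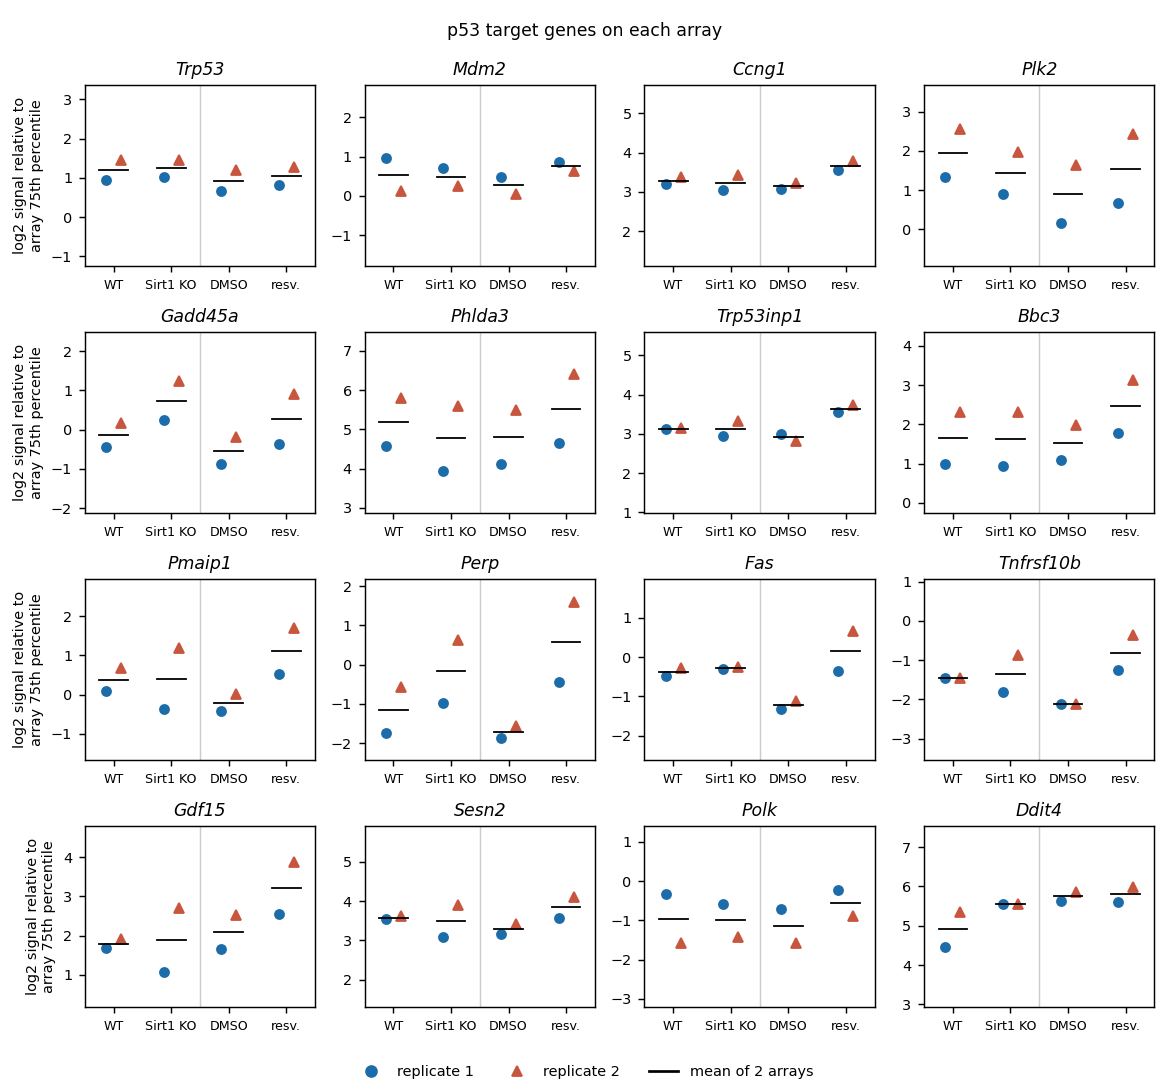
Level of 16 members on each of the 8 arrays, as log2 signal relative to the 75th percentile of the array (vertical axis, the same span in every panel), by group (horizontal axis). Circles are replicate 1, triangles are replicate 2 and the bar is the mean of the 2 arrays. Perp, Fas, Tnfrsf10b and Pmaip1 show both resveratrol arrays above both DMSO arrays, whereas Trp53 shows nearly level bars.

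The p53 family and its feedback arm came first. Trp53, which encodes p53, read 0.96 and 1.45 in WT (replicates 1 and 2), 1.03 and 1.45 in Sirt1 KO, 0.66 and 1.21 with DMSO, and 0.82 and 1.29 with resveratrol. Replicate 2 lay above replicate 1 in all 4 groups and the groups overlapped, with differences of 0.12 (SE 0.32) for resveratrol minus DMSO and 0.04 (SE 0.32) for Sirt1 KO minus WT. Mdm2, the ligase that degrades p53 and is itself a p53 target, read 0.97 and 0.11 in WT, 0.72 and 0.26 in Sirt1 KO, 0.48 and 0.06 with DMSO, and 0.87 and 0.64 with resveratrol. Both resveratrol arrays were above both DMSO arrays, by 0.48 in the means (0.39 and 0.58 in the pairs), a difference that did not pass the test with the replicate block (limma adjusted p = 0.198). Trp73, a p53 relative with roles in neural stem cell maintenance, differed by 0.13 with resveratrol and by -0.23 in Sirt1 KO, with an SE of 0.68 for each.

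The 3 death receptors were each higher on both resveratrol arrays than on either DMSO array. Fas, the receptor for Fas ligand, read -0.49 and -0.27 in WT, -0.31 and -0.26 in Sirt1 KO, -1.31 and -1.11 with DMSO, and -0.36 and 0.67 with resveratrol. Both DMSO arrays lay below the other 6, and resveratrol replicate 2 lay above them all. The Fas difference with resveratrol was 1.37 (SE 0.35), 2.58-fold, with 0.95 in pair 1 and 1.78 in pair 2, and it passed with the replicate block (SE 0.20, limma adjusted p = 0.0428). Tnfrsf10b, a receptor for the death ligand TRAIL, read -1.46 and -1.45 in WT, -1.82 and -0.87 in Sirt1 KO, -2.12 and -2.11 with DMSO, and -1.25 and -0.36 with resveratrol. Its difference of 1.31 (SE 0.42; 0.87 and 1.75 in the pairs) did not pass with the replicate block (limma adjusted p = 0.0969), although the DMSO arrays were again the lowest of the 8. Eda2r, the ectodysplasin A2 receptor, was higher by 0.44 with near-equal differences of 0.43 and 0.44 in the pairs, without overlap between the groups.

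Of the genes that act on mitochondria or at the membrane in cell death, Perp had the widest difference of the members. Perp, a membrane protein of p53-dependent apoptosis and of desmosomes, read -1.75 and -0.58 in WT, -0.97 and 0.63 in Sirt1 KO, -1.86 and -1.56 with DMSO, and -0.45 and 1.59 with resveratrol. The resveratrol arrays did not overlap with DMSO, but the 2 resveratrol arrays themselves lay 2.04 apart. Perp was higher by 2.28 (SE 0.80), 4.86-fold, with 1.41 and 3.15 in the pairs, and passed with the replicate block (SE 0.35, limma adjusted p = 0.0471). Bbc3, a BH3-only protein that neutralises BCL-2 family survival proteins, read 0.98 and 2.31 in WT, 0.95 and 2.31 in Sirt1 KO, 1.09 and 1.97 with DMSO, and 1.78 and 3.13 with resveratrol. DMSO replicate 2 lay above resveratrol replicate 1, so the groups overlapped, while within each slide resveratrol was higher. The Bbc3 difference was 0.93 (SE 0.71), 1.90-fold, with 0.69 and 1.16 in the pairs, and it passed with the replicate block (SE 0.14, limma adjusted p = 0.043). Its window with a p53 element match is printed above, as is that of Fas, which had none. Pmaip1 (Noxa), a further BH3-only protein, read 0.09 and 0.67 in WT, -0.36 and 1.18 in Sirt1 KO, -0.42 and 0.02 with DMSO, and 0.53 and 1.69 with resveratrol. Its difference of 1.31 (SE 0.59; 0.96 and 1.67 in the pairs) left no overlap with DMSO but did not pass with the replicate block (limma adjusted p = 0.0768).

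Leaving out 1 array moved these called values. Without resveratrol replicate 2 the differences were 1.26 for Perp, 0.86 for Fas and 0.25 for Bbc3. The Bbc3 difference was 0.48 without DMSO replicate 1 and 1.60 without resveratrol replicate 1. All 3 stayed above 0 whichever array was left out. Over all fits run, the limma adjusted p ran from 0.0471 to 1.0 for Perp, from 0.0428 to 1.0 for Fas and from 0.043 to 1.0 for Bbc3. With quantile normalization and the replicate block together, Bbc3 was the only member called (limma adjusted p = 0.0487).

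Further genes of the death programme had smaller differences. Trp53inp1, a nuclear protein that aids p53 phosphorylation and autophagy, read 3.12 and 3.14 in WT, 2.94 and 3.32 in Sirt1 KO, 3.0 and 2.83 with DMSO, and 3.55 and 3.74 with resveratrol. On this main probe the replicates were close and both resveratrol arrays exceeded the other 6 arrays, by 0.73 over DMSO (SE 0.25; limma adjusted p = 0.0768 with the replicate block). The further kept probe was also higher with resveratrol in both pairs (0.62 and 1.09). There WT replicate 1 read 3.51 and WT replicate 2 3.01, against 3.425 on resveratrol replicate 1. Phlda3, an inhibitor of AKT at the membrane, read 4.58 and 5.80 in WT, 3.94 and 5.60 in Sirt1 KO, 4.11 and 5.50 with DMSO, and 4.66 and 6.40 with resveratrol. Replicates lay further apart than groups did, and within the pairs resveratrol was higher by 0.55 and 0.90 (limma adjusted p = 0.0775 with the replicate block). Ei24, an endoplasmic reticulum protein of autophagy, was higher by 0.40 and the exonuclease gene Aen by 0.29. Bax, the effector that opens the outer mitochondrial membrane, differed by 0.18 (0.36 and -0.0010 in the pairs), and its window, printed above, held an element match. Apaf1, the scaffold of the apoptosome, differed by 0.04 on its main probe and by 0.26 and 0.49 on its further kept probes. The autophagy gene Dram1 differed by -0.02.

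**Figure D2:**
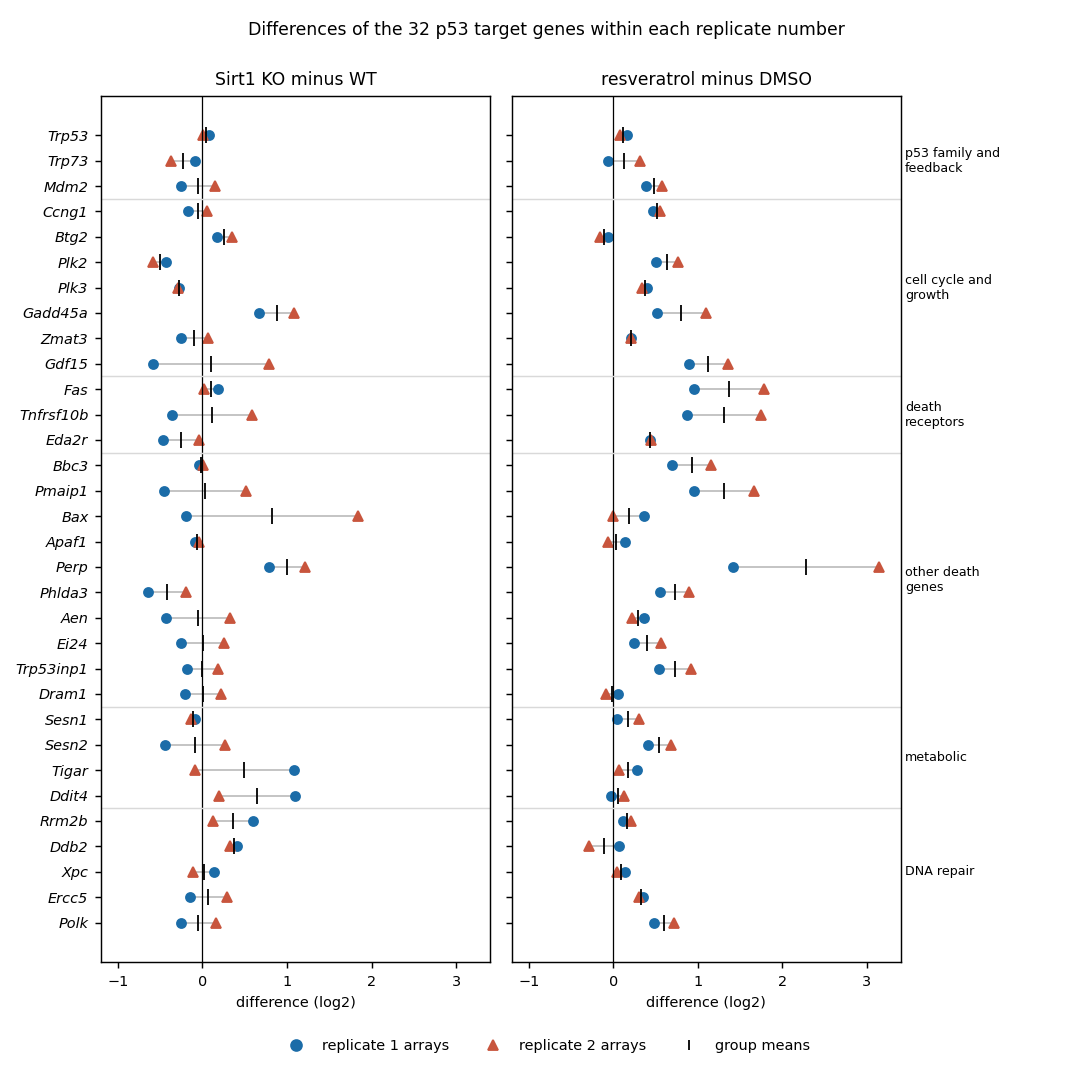
Difference of each of the 32 members (rows, grouped by role) on the log2 scale (horizontal axis) for Sirt1 KO minus WT and for resveratrol minus DMSO. Circles are the replicate 1 arrays, triangles the replicate 2 arrays and the black tick the group means. For resveratrol 25 members have both symbols right of 0, and for Sirt1 KO 8 have.

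Genes of cell cycle arrest and growth control were higher with resveratrol by value, with 1 exception. Ccng1 (cyclin G1), an early p53 target that acts with MDM2, read 3.21 and 3.37 in WT, 3.04 and 3.42 in Sirt1 KO, 3.07 and 3.22 with DMSO, and 3.55 and 3.78 with resveratrol. On this main probe both resveratrol arrays exceeded all others, by 0.52 over DMSO (SE 0.26), and the pairs gave 0.48 and 0.55 (limma adjusted p = 0.0951 with the replicate block). The further kept probe was also higher with resveratrol in both pairs (0.64 and 1.13). There the groups overlapped, with resveratrol replicate 1 at 2.09 and DMSO replicate 2 at 2.53. That probe was lower in Sirt1 KO in both pairs (-0.60 and -0.31). The window of Ccng1 carries the closest element match printed above. Gadd45a, a stress protein that slows entry to mitosis, read -0.44 and 0.15 in WT, 0.23 and 1.23 in Sirt1 KO, -0.89 and -0.20 with DMSO, and -0.38 and 0.90 with resveratrol. It was higher in both pairs of both comparisons, by 0.81 (SE 0.54) with resveratrol and 0.88 (SE 0.54) in Sirt1 KO, and neither passed with the replicate block (limma adjusted p = 0.109 and 0.0972). Plk2, a kinase of centriole duplication and of synapses, read 1.33 and 2.57 in WT, 0.90 and 1.98 in Sirt1 KO, 0.17 and 1.65 with DMSO, and 0.67 and 2.42 with resveratrol. Replicates differed by more than 1 in all 4 groups, and within the pairs resveratrol was higher by 0.51 and 0.77 (limma adjusted p = 0.0832 with the replicate block). Without resveratrol replicate 2 the difference turned to -0.24 for Plk2, as it did to -0.14 for Phlda3.

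Gdf15, a secreted cytokine of stressed cells, read 1.68 and 1.92 in WT, 1.08 and 2.71 in Sirt1 KO, 1.66 and 2.52 with DMSO, and 2.56 and 3.87 with resveratrol. Resveratrol replicate 1 lay just above DMSO replicate 2, and the means differed by 1.13 (SE 0.65; limma adjusted p = 0.143 with the replicate block). Plk3, a stress-activated kinase, was higher by 0.37 and the RNA-binding protein gene Zmat3 by 0.21. Btg2, an antiproliferative gene of neural progenitors turning to neurogenesis, was the exception at -0.11.

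The metabolic targets differed among themselves. Sesn2, a sestrin that restrains mTORC1, read 3.53 and 3.63 in WT, 3.09 and 3.90 in Sirt1 KO, 3.16 and 3.43 with DMSO, and 3.57 and 4.11 with resveratrol. Both resveratrol arrays were above DMSO, by 0.55 in the means (SE 0.36; limma adjusted p = 0.215 with the replicate block). Sesn1, its relative, was higher by 0.17 on its main probe, with 0.20 and -0.19 on its further kept probes. The fructose bisphosphatase gene Tigar was higher by 0.18. Ddit4 (Redd1), a further mTORC1 inhibitor, read 4.47 and 5.36 in WT, 5.56 and 5.56 in Sirt1 KO, 5.64 and 5.86 with DMSO, and 5.61 and 5.99 with resveratrol. WT replicate 1 was the lowest of the 8 and resveratrol did not part from DMSO (0.05, SE 0.42).

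Of the 5 DNA repair members, Polk had the widest difference with resveratrol. Polk, a polymerase that copies past DNA lesions, read -0.32 and -1.58 in WT, -0.58 and -1.42 in Sirt1 KO, -0.71 and -1.59 with DMSO, and -0.23 and -0.87 with resveratrol. Replicate 1 lay above replicate 2 in every group, and resveratrol was higher within the pairs by 0.49 and 0.71 (limma adjusted p = 0.175 with the replicate block). Ercc5, an endonuclease of nucleotide excision repair, was higher by 0.33, the damage sensor gene Xpc by 0.09 and the ribonucleotide reductase subunit gene Rrm2b by 0.16. Ddb2, which binds ultraviolet lesions, differed by -0.11, with 0.07 and -0.29 in the pairs.

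Several measures of the arrays moved with resveratrol too. The 75th percentile of signal was 740 and 297 on the resveratrol arrays and 778 and 388 on the DMSO arrays. The summed level of the 7 oligodendrocyte precursor markers was 7.58 and 7.77 with DMSO and 7.35 and 7.35 with resveratrol, and all 7 were lower in the group means. The part of these in the p53 target values was not tested. The median over the members, 0.39 with all arrays, was 0.18 without DMSO replicate 1, 0.18 without resveratrol replicate 2, 0.60 without resveratrol replicate 1 and 0.61 without DMSO replicate 2. In such a fit the remaining arrays differ in replicate number as well as in treatment.

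Sirt1 KO was compared with WT as the loss of SIRT1 function in the study. The p53 targets did not move in 1 direction: 8 of 32 were higher in both replicate pairs, against 22.3% of all genes, and 7 were lower in both, against 34.2%. The median difference over the members was 0.0044 (-0.17 in pair 1 and 0.15 in pair 2), and over all genes -0.043. A difference of at least 0.5 with the same sign in both pairs was reached upward by Perp, Gadd45a and Ddit4 (3 members, against 5.49% of all genes) and downward by Plk2 (1 member, against 4.48%). In the fit of group means limma called 0 genes of 13332, with 159 (1.19%) at an unadjusted p under 0.05, of which 0 were members. With the replicate block limma called 23 genes higher (0.173%) and 6 lower (0.0450%), and 0 of the 32 members, the lowest member's adjusted p being 0.0972 for Gadd45a. Unadjusted, 3 members were higher and 2 lower at a p under 0.05 with the block, against 6.23% and 7.68% of all genes. The arrays of the groups did not overlap for 3 members higher in Sirt1 KO (Rrm2b, Ddit4 and Gadd45a), against 7.12% of all genes, and for 1 lower (Eda2r), against 7.83%. The members' median was -0.18 without Sirt1 KO replicate 2, 0.27 without Sirt1 KO replicate 1, 0.13 without WT replicate 2 and -0.016 without WT replicate 1.

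By value, Perp was higher in Sirt1 KO by 1.0 (SE 0.80), with 0.78 and 1.22 in the pairs (limma adjusted p = 0.27 with the replicate block), and WT replicate 2 lay above Sirt1 KO replicate 1. The Perp difference was 0.20 without Sirt1 KO replicate 2 and 1.80 without Sirt1 KO replicate 1. Ddit4 was higher by 0.65 (SE 0.42), with 1.10 in pair 1 and 0.20 in pair 2 (limma adjusted p = 0.188 with the replicate block), and by 0.20 without WT replicate 1 and 1.09 without WT replicate 2. The 15 hypoxia genes, a set that Ddit4 also answers to, had a median difference of 0.47, with 14 higher in both pairs, against 22.3% of all genes. Plk2 was lower by value (-0.51, SE 0.79; limma adjusted p = 0.142 with the replicate block), as was Phlda3 (-0.42, SE 0.87). Both turned above 0 when 1 array was left out, Plk2 to 0.11 without WT replicate 2 and Phlda3 to 0.41 without Sirt1 KO replicate 1. With normexp background correction the differences in Sirt1 KO were 0.55 for Perp, 1.02 for Ddit4, -0.22 for Plk2 and -0.0019 for Phlda3. With slide as a block they were 0.57 for Perp, 0.44 for Ddit4, -1.17 for Plk2 and -1.0 for Phlda3. Bax read 2.79 and 1.76 in WT, 2.60 and 3.60 in Sirt1 KO, 2.46 and 3.63 with DMSO, and 2.83 and 3.63 with resveratrol. WT replicate 2 was thus the only replicate 2 array below its replicate 1, and the Bax difference of 0.83 (SE 0.59) became 0.31 without it. Tigar likewise had unlike pairs on its main probe, 1.08 and -0.09, but near-equal ones on its further kept probe, 0.45 and 0.47. The 9 astrocyte markers measured had a median difference of 0.94 and 8 were higher, their summed level being 6.38 and 7.08 in WT and 7.18 and 7.94 in Sirt1 KO, and their part in these values was not tested.

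**Figure D3:**
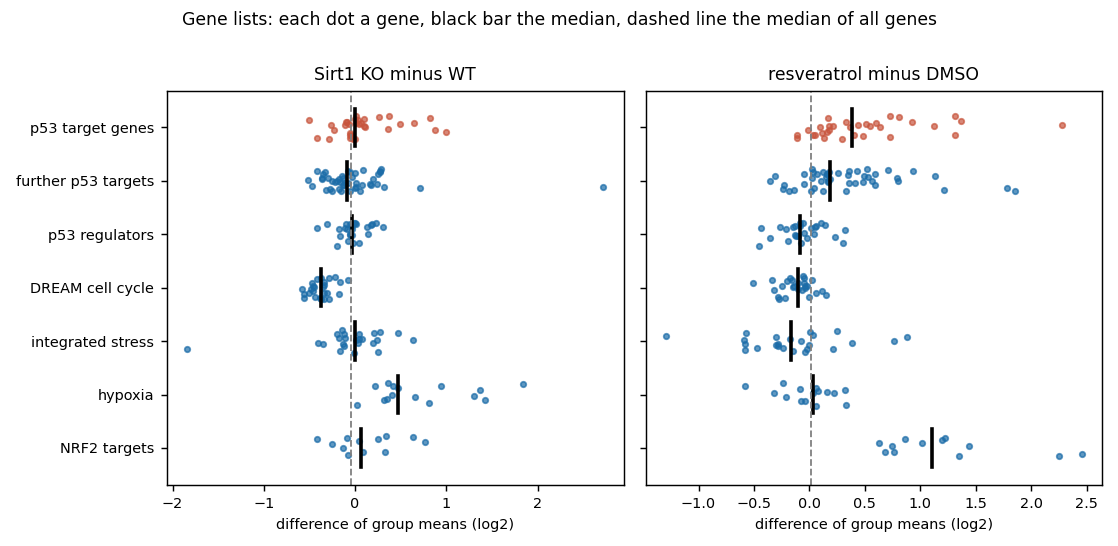
Difference of group means on the log2 scale (horizontal axis) for the p53 targets and 6 other gene lists (rows), for Sirt1 KO minus WT and resveratrol minus DMSO. Each dot is a gene, the black bar is the median of the list and the dashed line the median of all genes. For resveratrol the medians are 0.39 for the 32 p53 targets, 0.18 for the further p53 targets and 1.10 for the NRF2 targets.

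Genes of the same pathway outside the 32 were read from further lists. Of 53 further p53 targets 46 were measured, with a median of 0.18 with resveratrol. In both pairs 34 were higher, against 36.7% of all genes, and 6 lower, against 32.2%. With the replicate block 3 of the 46 were called higher, against 0.405% of all genes. These were Def6 (1.86) and Dcxr (1.78; limma adjusted p = 0.031 and 0.0322), and Crip2. Casp1, the inflammatory caspase, was higher by 1.22 and Cdkn1a by 1.14, neither past the test (limma adjusted p = 0.109 and 0.0636 with the replicate block). Cdkn1a, which encodes the cell cycle inhibitor p21, read 4.15 and 4.66 in WT, 3.44 and 4.83 in Sirt1 KO, 3.15 and 3.97 with DMSO, and 4.12 and 5.27 with resveratrol. Both resveratrol arrays exceeded both DMSO arrays, while resveratrol replicate 1 lay below both WT arrays. In Sirt1 KO the further targets had a median of -0.09. In both pairs 7 were higher, against 22.3% of all genes, and 18 lower, against 34.2%. Cd82, a tetraspanin, was the 1 gene called with the replicate block (2.72, limma adjusted p = 0.0123), against 0.173% of all genes called higher. Its probe was well above background on 7 of the 8 arrays, failing on WT replicate 2, so the size of this difference is uncertain.

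Upstream of p53, 26 of 28 regulators were measured, among them the kinases Atm, Chek1 and Hipk2. Their median was -0.08 with resveratrol and -0.03 in Sirt1 KO, and 0 were called by limma in any fit of either comparison listed here, with group means, the replicate block or slide as a block. Their unadjusted p was under 0.05 for 0 regulators in the group means and, with the replicate block, for 3 with resveratrol (1 higher and 2 lower, against 9.53% and 4.71% of all genes) and for 1 in Sirt1 KO (lower, against 7.68%). The widest differences with resveratrol were -0.45 for Hipk2 and -0.44 for Atm. The 26 cell cycle genes that p53 lowers through p21 and the DREAM repressor complex had a median of -0.11 with resveratrol, and Mki67 differed most (-0.50). In both pairs 15 were lower, against 32.2% of all genes, and 4 higher, against 36.7%. In Sirt1 KO all 26 were lower in the group means, with a median of -0.37, and 20 in both pairs, against 34.2% of all genes. Ccna2 (-0.58) and Mki67 (-0.56) differed most there, and 0 of the 26 were called by limma, with 0 at an unadjusted p under 0.05 in the group means and 19 with the replicate block, all lower, against 7.68% of all genes.

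Other programmes that share targets with p53 were read beside it. The integrated stress response can raise Sesn2, Gdf15, Ddit4, Tnfrsf10b, Pmaip1 and Bbc3. Its 24 genes had a median of -0.16 with resveratrol (0.011 in pair 1 and -0.35 in pair 2). In both pairs 4 were higher, against 36.7% of all genes, and 11 lower, against 32.2%. The hypoxia genes had a median of 0.03 with resveratrol, with opposite signs in the pairs (0.26 and -0.24), and the 7 measured of 8 glucocorticoid targets one of -0.06 there and 0.31 in Sirt1 KO. The 12 NRF2 targets, antioxidant genes, were higher with resveratrol in both pairs without exception, against 36.7% of all genes. Their median was 1.10 (0.74 in pair 1 and 1.43 in pair 2). With the replicate block 6 of the 12 were called higher, against 0.405% of all genes, led by Osgin1 (2.46) and Srxn1 (2.26; limma adjusted p = 0.0319 and 0.0256). In Sirt1 KO their median was 0.061. Whether these programmes had a part in the p53 target values was not tested.

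The difference between the comparisons (resveratrol minus DMSO, less Sirt1 KO minus WT) was tested next. Its pairs join the arms by replicate number alone, and the arms also differ in strain, schedule and, in replicate 1, sex. The difference was above 0 in both pairs for 21 of the 32 members, against 35.8% of all genes, and below 0 in both for 3, against 22.2%. Its median was 0.38, against 0.060 over all genes. In the fit of group means limma called 0 genes, with 125 (0.938%) at an unadjusted p under 0.05, of which 1, Fas, was a member. With the replicate block it called 23 higher (0.173%) and 16 lower (0.120%), and 0 members, the lowest member's adjusted p being 0.0589 for Plk2. Unadjusted, 15 members were higher at a p under 0.05 with the block, against 8.30% of all genes, and 0 lower, against 4.13%. A size of at least 0.5 with the same sign in both pairs was reached by 15 members upward, against 9.68%, and by 1 downward, against 6.59%. The values were 1.28 (SE 1.14) for Perp and 1.27 (SE 0.49) for Fas.

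DMSO and WT differ in strain, solvent, schedule and, in replicate 1, sex, which cannot be told apart, and their replicate 2 arrays also lay on different slides scanned on different days. The comparison shares arrays with both others. For 19 of the 32 members DMSO was lower than WT on both replicate numbers, against 33.7% of all genes, and for 7 higher, against 27.1%. The members' median was -0.23 and that of all genes -0.025 (-0.10 and 0.093 in the authors' value table). With slide as a block the members' median was -0.055, with 14 higher and 18 lower. It was -0.060 without WT replicate 2, -0.060 without DMSO replicate 1, -0.31 without WT replicate 1 and -0.49 without DMSO replicate 2. The arrays of the groups did not overlap for 7 members lower with DMSO, against 13.8% of all genes, Fas (-0.83) and Tnfrsf10b (-0.66) among them, and for 3 higher, against 12.4%, including Ddit4 (0.84). Limma called 10 genes (0.0300% higher and 0.0450% lower) and 0 members in the group means, with 751 genes (5.63%) and 0 members at an unadjusted p under 0.05. With slide as a block it called 138 genes (1.04%) and 0 members.

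**Figure D4:**
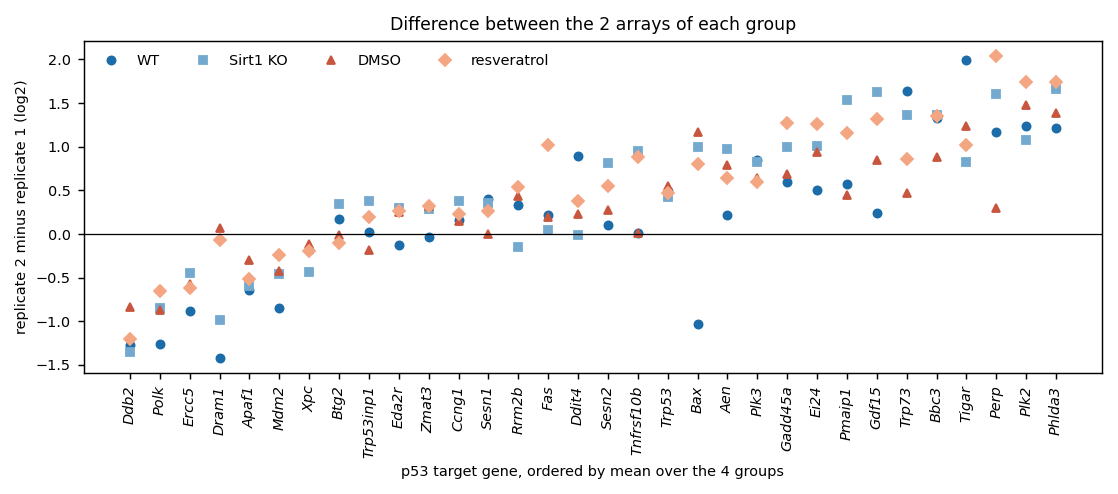
Replicate 2 minus replicate 1 on the log2 scale (vertical axis) for each of the 32 members (horizontal axis, ordered by the mean over the groups), with 1 symbol for each of the 4 groups. Phlda3, Plk2 and Bbc3 lie above 0 in all 4 groups, Ddb2, Polk and Mdm2 below 0 in all 4, and the WT value of Bax lies apart from the other 3.

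The members also varied between replicates. In all 4 groups 18 of 32 members (56.3%) were higher on replicate 2 and 6 (18.8%) were lower, and the shares over 13289 genes with values on every array were 44.89% and 21.04%. Phlda3 was higher on replicate 2 by 1.22 to 1.74 and Ddb2 lower by 0.84 to 1.36. For Phlda3 and Plk2 the replicates of every group lay further apart than the group means of resveratrol and DMSO or of Sirt1 KO and WT. Fas differed by at most 0.21 between replicates in the 3 other groups and by 1.02 with resveratrol.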

How the data were processed

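Scanner output of 8 arrays was read with Agilent Feature Extraction, version 10.7.3.1 per the file headers and 10.7 per the submitters' processing notes. The deposited intensity of each spot had been corrected for background by that software, per the file headers, with no scaling between arrays. The deposited log2 value table, which the authors apparently quantile normalized in separate sets (array medians of 6.28 and 6.01), served as an alternative; its software is not given in the sources used here. Of 45018 spots 1639 were controls; the rest held 41174 probes. Log2 intensities were centred on the 75th percentile of each array, and a probe was kept where both arrays of some group read it well above background (26362 probes). Accessions in the files were matched to a RefSeq table, which named 26918 probes, and 14256 unnamed probes were left out. The kept probe of highest mean stood for its gene.

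The comparisons used limma (version 3.58.1, R 4.3.3) with 4 group means over 8 arrays and a variance trend with intensity. Tests were two-sided and p-values were adjusted by Benjamini-Hochberg over 13332 genes within a comparison, at 0.05. SEs are limma's moderated ones. The script was tested on simulated data. Alternatives were other scalings, background corrections, filters, probe rules and blocks, and leaving out each array. The normexp background correction, with an offset of 50, used median spot signals. The members and all gene lists were chosen with earlier results of these data known. Members were all named. Values on all 8 arrays were given for Trp53, Mdm2 and members with a difference of at least 0.5 (log2) and 1 sign in both pairs in either comparison, or called by any fit. Bax, Cdkn1a and Crip2 were added after their values were seen. Up to 4 genes of each other list were named by size of difference.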

Additional observations from a re-analysis of the deposited data

Results flagged for a closer look

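On the main probe, both replicate pairs of 6 members moved one way in Sirt1 KO minus WT and the opposite way in resveratrol minus DMSO. The difference between the comparisons was tested for each, and none passed in the fit of group means (limma adjusted p = 1.0 for all 6) or with the replicate block. Over all genes, 11.5% were lower in Sirt1 KO and higher with resveratrol in both pairs, as 5 of these members were, and 6.17% had the opposite pattern, as Btg2 had.

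The difference was 1.14 (SE 1.11) for Plk2, a kinase of centriole duplication, with a limma adjusted p of 0.0589 with the replicate block. For Phlda3, the AKT inhibitor, it was 1.14 (SE 1.24; limma adjusted p = 0.0804 with the replicate block). For Eda2r, the receptor, it was 0.69 (SE 0.33; 0.212), and for the kinase gene Plk3 it was 0.65 (SE 0.63; 0.228), each p being limma's adjusted value with the replicate block. Sesn1 had a difference of 0.28 (SE 0.36; limma adjusted p = 0.516 with the replicate block). Btg2, the antiproliferative gene, went the other way with -0.37 (SE 0.31; limma adjusted p = 0.419 with the replicate block). The probes of Sesn1 disagreed. Its further kept probes were higher in Sirt1 KO in both pairs (0.18 and 0.31, and 0.22 and 0.0048), unlike the main probe. With the mean of its kept probes the Sesn1 difference was -0.021.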

How the results depend on the processing

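Of 32 members, 29 kept the sign of resveratrol minus DMSO under every other scaling, background, filter, probe and block setting tried (the exceptions, all within 0.11 of 0 in the group means, were Ddit4, Ddb2 and Dram1), and 18 kept it whichever array was left out. For Sirt1 KO minus WT the counts were 11 and 7. The members' median with resveratrol was 0.35 with quantile normalization, with or without the replicate block, 0.37 with the percentile taken over probes well above background on all arrays, 0.34 with normexp, 0.34 in the authors' value table and 0.42 over the 30 members well above background on all 8 arrays. Leaving out each array gave 0.18 to 0.61, and for Sirt1 KO -0.18 to 0.27.

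Same-numbered arrays deviated together (correlations of 0.737 for WT with Sirt1 KO and 0.834 for DMSO with resveratrol), but 2 pairs cannot show pairing. Deviations also went together across the arms, at 0.642 between resveratrol and Sirt1 KO and 0.596 between DMSO and WT. The shared deviation was thus not confined to groups of the same arm. Against 0 genes in the group means, the replicate block called 29 for Sirt1 KO, 61 for resveratrol and 39 for the difference between them, and with quantile normalization 25, 37 and 24. Without 1 array the counts were 0 to 5 for Sirt1 KO, 0 for resveratrol and 0 to 3 for the difference. For DMSO minus WT, 10 genes became 3 with normexp (0 higher, 3 lower), 4 over probes well above background on all 8 arrays, 138 with slide as a block and 0 to 4 without 1 array. The authors' value table moved the median of all genes in that comparison by 0.12. The causes were not tested.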
